A study of Saccharomyces cerevisiae with 18 samples.

Results

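The 44 genes described here encode proteins of the budding yeast cell wall, the enzymes that build and remodel it, and the kinase pathway that guards its integrity. They were selected from the 6837 identifiers of the count table by what their products do, with earlier results of these data known. The values set beside those of all genes below are therefore descriptions of a list that was not chosen blind. They comprise 3 SUN proteins, 4 PIR proteins, 5 TIR and DAN mannoproteins, 7 other mannoproteins, 10 glucan-modifying enzymes, 3 glucan synthases, 3 chitin synthases, the surface proteins ECM33 and PST1 with the protease YPS1, and 6 genes of the integrity pathway. All 44 passed the filter on low counts and were among the 6320 genes tested.

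RNA-seq of polyadenylated RNA was carried out on BY4742, a haploid laboratory strain of Saccharomyces cerevisiae, as wild type (WT), with SET2 deleted (set2Δ) and with BRE1 deleted (bre1Δ). Set2 is the methyltransferase for lysine 36 of histone H3, and Bre1 is the ubiquitin ligase for histone H2B. Cells were grown in YPD at 30 °C without further treatment and collected at day 1 or at day 4 of chronological aging, with 3 libraries in each of the 6 groups. Whether the libraries of a group came from separate cultures or clones is not given in the sources used here, so the p values measure the spread between these libraries, which may be technical.

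The yeast wall consists of a glucan and chitin network on the inside and a layer of mannoproteins on the outside. Most mannoproteins are held by a remnant of a GPI anchor that is joined to glucan, whereas PIR proteins are bound to glucan directly. Stress on the wall is sensed at the plasma membrane and passed through the GTPase Rho1 to the kinase Pkc1, then through Bck1 and the pair Mkk1 and Mkk2 to the MAP kinase Slt2, which acts on the transcription factor Rlm1. Rlm1 is known to bind sites that begin with CTA and end with TAG in the promoters of many wall genes.

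Library totals ranged from 8038470 to 29514490 counts. SET2 had 3 to 9 counts in each set2Δ library against 253 to 624 in each WT library, and BRE1 had 0 or 1 count in each bre1Δ library against 953 to 2757 in each WT library. The MATα marker list (4 genes) summed to 167 to 1758 CPM per library, the MATa list (5 genes) to 79.5 to 146 CPM and the list for sporulating cells (4 genes) to 53.8 to 159 CPM. The lowest counts in any library among the 44 genes were 24 for DAN1, 38 for TIR3 and 52 for TIR1, so these 3 genes carry the largest counting error. Levels are given as CPM after TMM scaling, and a change as a log2 fold change ± its standard error from edgeR's quasi-likelihood fit, with p adjusted over all 6320 genes and a threshold of 0.05. In bulk libraries fewer cells of a type and less RNA per cell cannot be told apart.

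The 500 bases before each start codon were searched for CTANNNNTAG, the outer letters of the Rlm1 site. This motif reads the same on both strands, so a single search covers both. It stood before 13 of the 44 genes (29.5%) and before 556 of the 6000 protein-coding nuclear genes searched (9.27%). When only A or T was allowed between the outer letters, a narrowing added after the first search, it stood before 11 of the 44 (25%) and before 109 of the 6000 (1.82%). A match describes the letters of the genome and is not evidence of binding. The 11 matches are printed below with 10 bases on either side, because the day effects of these genes are given as a group later. They were read from the R64 (sacCer3) genome on the strand of the gene, 5′ to 3′, with the motif in capitals.
PST1, chrIV:563212-563241, + strand: ttacgagtctCTAAAAATAGcgtaggcaca
SED1, chrIV:600303-600332, + strand: gcatatatcgCTAAAATTAGccatcagaac
BGL2, chrVII:1058924-1058953, - strand: atatgcagttCTATTTTTAGtaaaagaaac
HSP150, chrX:120216-120245, + strand: acattttgagCTAAATTTAGattttggtca
BCK1, chrX:247207-247236, + strand: gtacgaaacaCTAAATATAGtattaaaata
PIR3, chrXI:144111-144140, + strand: gattagcaaaCTAATTATAGatcaaaggcc
CWP1, chrXI:260736-260765, + strand: tacgtcataaCTAAAAATAGcgttagccac
CCW14, chrXII:903495-903524, + strand: cggaaaattaCTATTTATAGaagcattgga
GAS5, chrXV:268054-268083, + strand: tttgcttataCTATAAATAGgaaggtccct
MKK1, chrXV:772158-772187, + strand: atgcttttaaCTATTATTAGtttttctcac
RLM1, chrXVI:381439-381468, - strand: gagatgaaagCTAATAATAGaaacagctcg
The motifs of PST1 and CWP1 have the same 10 letters and begin 305 and 386 bases before their start codons. The match nearest to a start codon is that of BCK1, at 38 bases, and the farthest is that of SED1, at 480 bases.

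By share of all counts, which scales each library by its total only, the 44 genes together took more of every day 4 library than of any day 1 library of the same strain. In WT the share was 3.13% to 3.80% at day 1 and 5.62% to 6.09% at day 4. In set2Δ it was 2.25% to 2.54% and then 3.93% to 4.34%, and in bre1Δ 2.45% to 2.52% and then 4.84% to 5.29%. At each day all libraries of both deletions lay below all WT libraries. A share depends on all other counts of its library, as does the scaling by library size only that is described below. Such a sum follows its most abundant genes. In set2Δ the 7 other mannoproteins took 1.32% to 1.55% at day 1 and 2.04% to 2.40% at day 4. Yet 5 of these 7 fell there and 2 rose, among them SED1, from a mean of 4557 to 16284 CPM. Of the 10 glucan-modifying enzymes 6 fell in set2Δ and 4 rose. The glucan-modifying enzymes went from 0.300% to 0.327% to 0.878% to 0.903% in WT and reached only 0.388% to 0.409% in set2Δ at day 4, against 0.761% to 0.819% in bre1Δ. The PIR proteins took their largest share, 0.658% to 0.813%, in bre1Δ at day 4, with WT at 0.326% to 0.354%. The chitin synthases took their largest share, 0.0741% to 0.0910%, in bre1Δ at day 1.

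**Figure D1:**
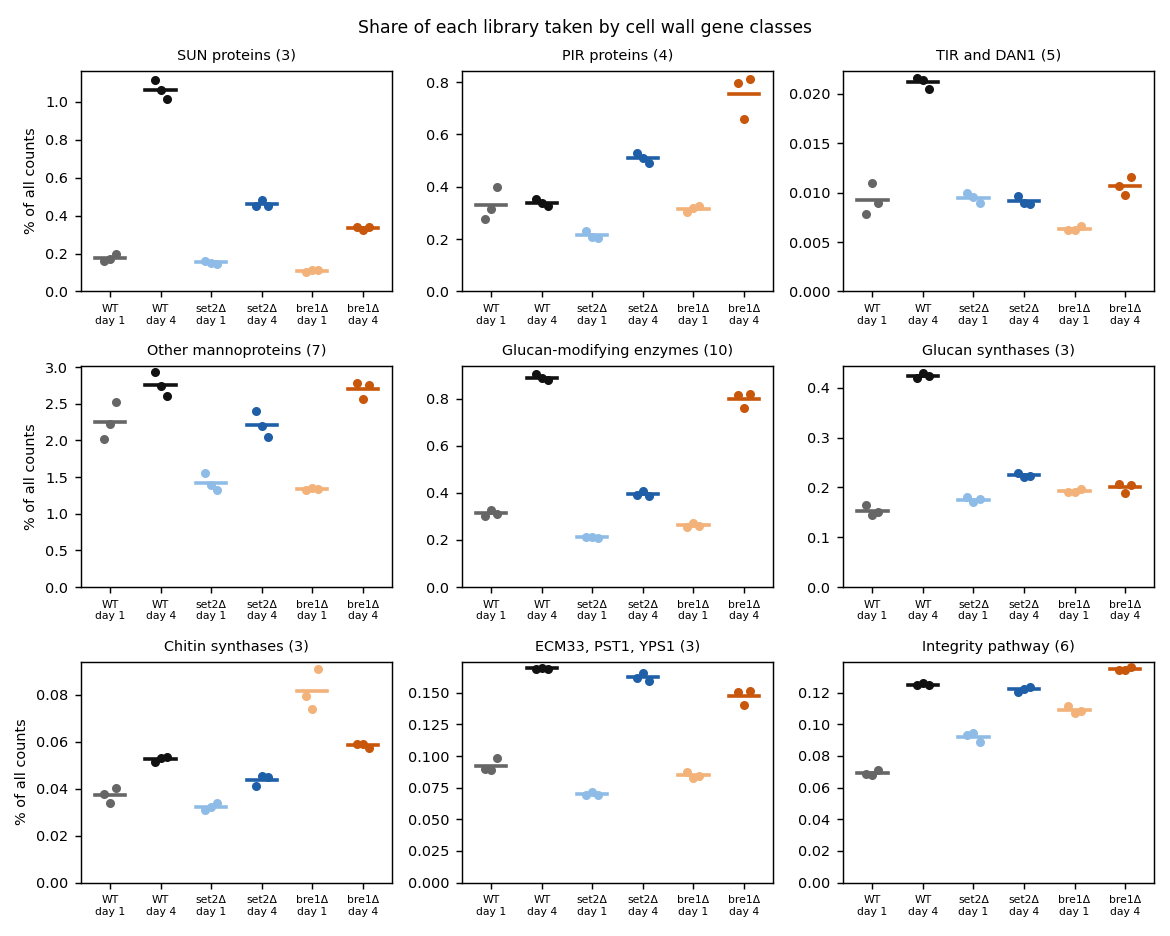
Share of all counts of a library (%, linear axes from 0) taken by each of the 9 gene classes in the 6 groups. Points are the 3 libraries of a group and lines their mean; the glucan-modifying enzymes stand at 0.878% to 0.903% in WT and 0.388% to 0.409% in set2Δ at day 4.

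By day 4 most of the 44 genes were called higher in each strain. In WT 27 rose and 8 fell, where 37.2% of all genes tested rose and 40.5% fell. The median log2 fold change was 0.64 over the 44 and -0.02 over all genes, and 19 of the 44 changed at least 2-fold, against 18.8% of all genes. In set2Δ 25 rose and 14 fell (all genes 34.3% and 37.3%), with a median of 0.28 beside -0.03 and 16 changes of at least 2-fold (13.6% of all genes). In bre1Δ 30 rose and 8 fell (all genes 37.9% and 38.4%), with a median of 0.81 beside -0.02 and 22 changes of at least 2-fold (17.8% of all genes). The day 4 and day 1 libraries did not overlap for 36 of the 44 genes in WT, 40 in set2Δ and 41 in bre1Δ, where the shares over all genes were 77.8%, 75.2% and 77.8%.

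A core of 14 genes rose with age in all 3 strains, which is 31.8% of the 44 against 493 of the 6320 genes tested (7.80%). It holds the MAP kinase gene SLT2, its target RLM1 and the integrity reporter PRM5, the surface protein genes ECM33 and PST1, the wall protein genes SED1, CCW14, CIS3 and NCA3, and the enzyme genes BGL2, EXG1, CRH1, GAS5 and KRE6. KRE6 is the least certain of them, since its rise in set2Δ (0.16 ± 0.07, adjusted p = 0.0298) lost its call without replicate 2 or 3 of day 1 and without any of the 3 libraries of day 4, with adjusted p = 0.0597 to 0.125. The rises of KRE6 and CIS3 in set2Δ also lost their calls with upper quartile scaling, library size only and both fits of log2 FPKM (adjusted p = 0.371 to 0.766 and 0.0642 to 0.213), and that of RLM1 with upper quartile scaling (0.12, adjusted p = 0.122). TIP1 and SPI1 fell in all 3 strains, which is 4.55% of the 44 against 578 of all genes (9.15%). The day effect went in opposite directions for 5 genes between WT and set2Δ, for 7 between WT and bre1Δ and for 13 between set2Δ and bre1Δ, with the difference called. Over all genes tested these shares were 22.7%, 27.1% and 24.0%.

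Each deletion was compared with the same WT libraries, so the comparisons of the 2 deletions with WT share their controls. In set2Δ against WT at day 1, 8 of the 44 genes were higher and 31 lower (37.9% and 39.5% of all genes). The median was -0.62 beside -0.01 for all genes, and 12 differed at least 2-fold (19.1% of all genes). At day 4, 7 were higher and 32 lower (34.7% and 44%), with a median of -0.67 beside -0.10 and 17 differences of at least 2-fold (21.9%). In bre1Δ against WT at day 1, 10 were higher and 28 lower (35.8% and 35.8%), with a median of -0.47 beside 0.02 and 13 differences of at least 2-fold (10.3%). At day 4, 16 were higher and 21 lower (44.8% and 41.6%), with a median of -0.07 beside 0.04 and 18 differences of at least 2-fold, which is 40.9% of the 44 beside 38.0% of all genes. The libraries of deletion and WT did not overlap for 37 and 40 of the 44 genes in set2Δ at days 1 and 4, and for 38 and 39 in bre1Δ, where the shares over all genes were 77.0%, 81.7%, 70.4% and 88.4%.

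These counts against WT depend on the scaling. The TMM factors of the WT libraries lay between 0.857 and 0.892 and those of the deletion libraries between 1.033 and 1.139. With scaling by library size only, 13 genes were higher and 23 lower in set2Δ at day 1 (60.0% and 21.0% of all genes), 15 higher and 22 lower in bre1Δ at day 1 (57.1% and 19.2%), and 24 higher and 17 lower in bre1Δ at day 4 (53.8% and 32.8%). In these comparisons that scaling puts the median over all genes at 0.35, 0.32 and 0.31. All values below are relative to TMM scaling.

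In set2Δ 25 of the 44 genes were lower than in WT at both days and 4 were higher at both, where 22.1% and 18.2% of all genes were. On opposite sides of WT at the 2 days stood 5 of the 44, and 22.1% of all genes. SLT2, PIR3 and YPS1 went from lower at day 1 to higher at day 4, and EXG2 and RLM1 from higher to lower. With scaling by library size only, SLT2 at day 1 was on the other side of WT (0.04). In set2Δ the call of RLM1 at day 1 was lost without replicate 1 of set2Δ (adjusted p = 0.101) or replicate 1 of WT (0.063), and that of SLT2 at day 4 without replicate 2 of set2Δ (0.0701) or replicate 2 or 3 of WT (0.0764 and 0.0632). In bre1Δ 16 genes were lower at both days, 5 were higher at both, and 10 changed sides (22.4%, 23.3% and 17.5% of all genes). TIP1, CRH1, PRM5, PIR3, CCW12, EXG1 and GAS3 went from lower to higher, and PKC1, CHS1 and MKK1 from higher to lower, where CHS1 (0.02) and MKK1 (0.14) at day 4 are above WT with scaling by library size only. CRH1 lost its lower call at day 1 with library size only (-0.12, adjusted p = 0.102) and both fits of log2 FPKM (-0.11, 0.135 and 0.136). The call of PIR3 in bre1Δ at day 4 was lost without replicate 1 or 3 of bre1Δ (adjusted p = 0.0655 and 0.0783) or replicate 2 or 3 of WT (0.0516 and 0.064), and with DESeq2 (0.0525).

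**Figure D2:**
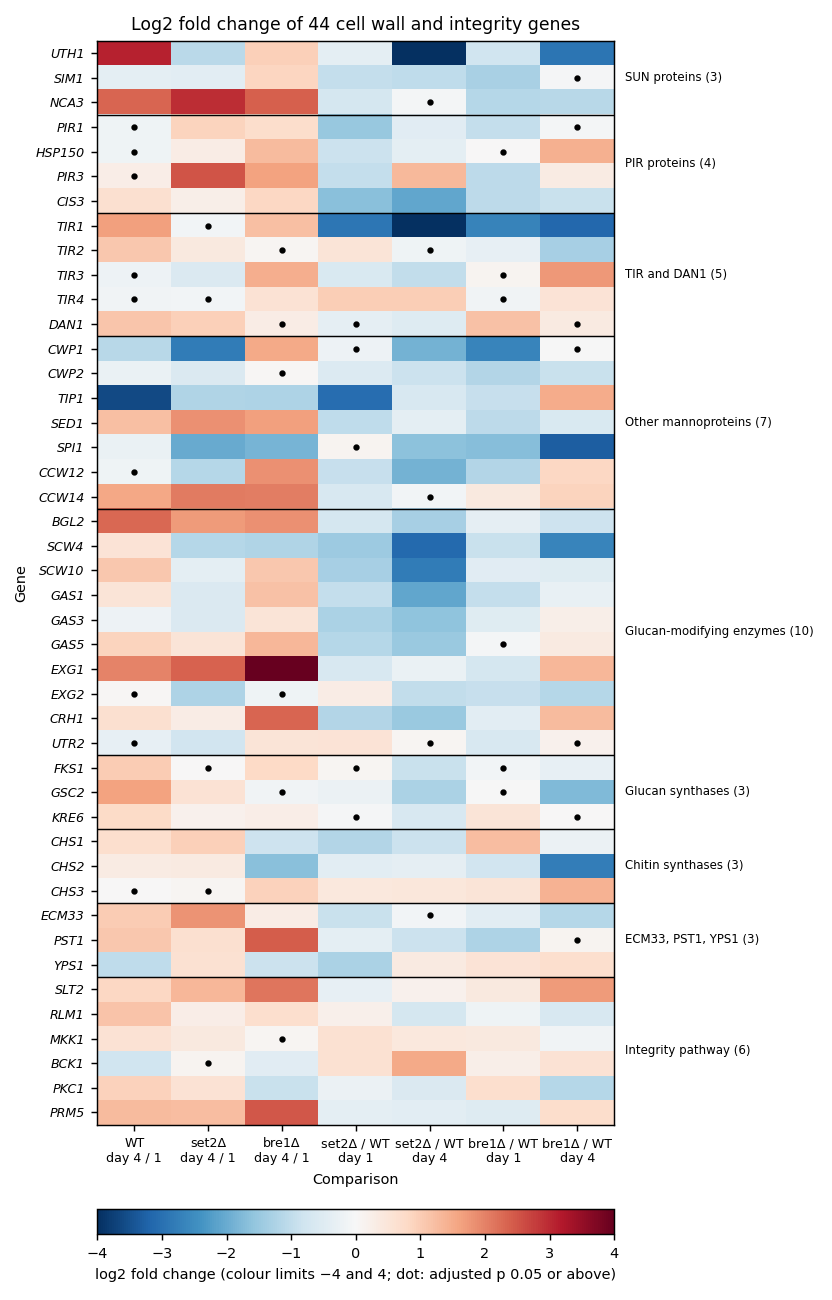
Log2 fold change of the 44 genes (rows, grouped by class) in the 7 pairwise comparisons (columns), with red for higher, blue for lower, colours capped at -4 and 4, and a dot where adjusted p was 0.05 or above. The 2 columns of set2Δ against WT are mostly blue, with 31 and 32 genes called lower, and EXG1 and UTH1 carry the deepest colours among the day effects that rose.

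The day effect itself differed from that of WT for most genes. In set2Δ it was more positive for 13 genes and more negative for 23 (34.8% and 37.9% of all genes), by at least 2-fold for 13 (25.7%), with a median difference of -0.34 beside -0.05 for all genes. In bre1Δ it was more positive for 23 and more negative for 16 (40.0% and 36.9%), by at least 2-fold for 19 (30.0%), with a median of 0.32 beside 0.04. Between the deletions, it was more positive in bre1Δ than in set2Δ for 24 genes and more negative for 10 (36.7% and 35.1%), by at least 2-fold for 20 (24.5%), with a median of 0.60 beside 0.01.

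**Figure D3:**
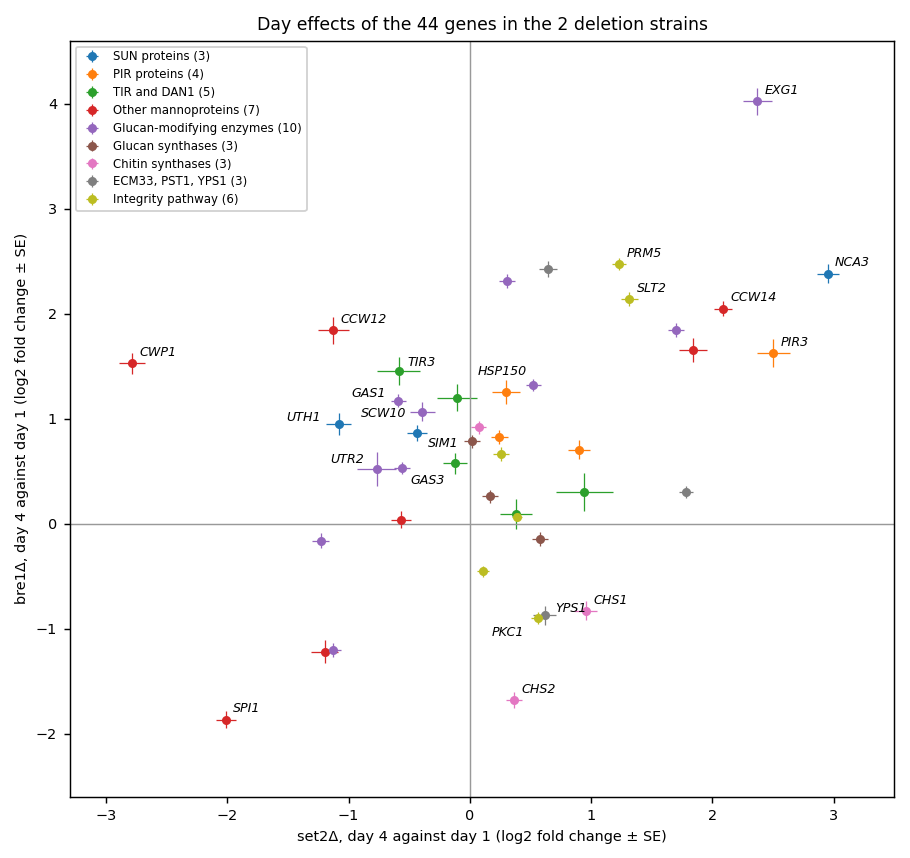
Log2 fold change from day 1 to day 4 in set2Δ (x axis) and bre1Δ (y axis) for the 44 genes, coloured by class, with standard errors as bars. In the upper left quadrant, below 0 in set2Δ and above 0 in bre1Δ, the genes farthest out are CWP1 (-2.78 and 1.53) and CCW12 (-1.13 and 1.84), and in the lower right quadrant CHS1, CHS2, PKC1 and YPS1.

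Genes that mark newborn daughter cells differed between these groups. Of the 8 genes of that list, CTS1, DSE1, DSE2, DSE4, SCW11, EGT2, ASH1 and AMN1, all 8 rose in bre1Δ by day 4 (37.9% of all genes) and all 8 were above WT there (44.8%). Summed over the list, bre1Δ at day 4 had 36230 to 38756 CPM per library, bre1Δ at day 1 3267 to 5808, WT 5045 to 10149 at day 1 and 2985 to 3368 at day 4, and set2Δ 1991 to 2121 and 2083 to 2327. In WT all 8 fell by day 4 (40.5% of all genes), and in set2Δ 2 rose and 1 fell (34.3% and 37.3%). Against WT, 0 were higher and 8 lower in set2Δ at day 1 (median -1.86), 1 higher and 5 lower in set2Δ at day 4 (-0.53), and 0 higher and 3 lower in bre1Δ at day 1 (-0.39). The list shows the widest spread within a group in WT at day 1, and no member of the list is among the 44 genes. Its part in the results of bre1Δ at day 4, and in those of set2Δ against WT, was not tested.

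Of the SUN proteins, UTH1 showed the widest spread between groups among all 44 genes apart from TIR1. UTH1 (YKR042W, chromosome XI, 519527 to 520624, + strand) takes its name from a screen for longer-lived, stress-resistant yeast. In WT, UTH1 stood at 811, 929.8 and 1025 CPM in the 3 libraries of day 1 and at 8300.4, 7724 and 7157 CPM at day 4. In set2Δ, UTH1 had 759, 687 and 687 CPM at day 1 and 365, 342 and 301 CPM at day 4. In bre1Δ, UTH1 had 475, 555 and 548 CPM at day 1 and 1089.8, 843 and 1105 CPM at day 4. The WT day 4 libraries were thus the highest of all 18 and the set2Δ day 4 libraries the lowest, and replicate 2 of bre1Δ at day 4 lay below its 2 companions. UTH1 rose in WT (3.07 ± 0.11, adjusted p = 8.30e-16) and in bre1Δ (0.94 ± 0.10) and fell in set2Δ (-1.08 ± 0.11, adjusted p = 1.02e-08). The difference of its day effect from that of WT was -4.15 ± 0.15 in set2Δ and -2.12 ± 0.15 in bre1Δ.

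NCA3, first described for its effect on the mitochondrial ATP synthase, was the SUN gene that rose most in set2Δ. In WT, NCA3 stood at 806, 733 and 983 CPM at day 1 and 4285, 4247 and 4162 CPM at day 4. In set2Δ, NCA3 had 543, 518 and 487 CPM and later 3915, 4196 and 3871 CPM. In bre1Δ, NCA3 had 346, 385 and 405 CPM and later 1921, 2037 and 1964 CPM. Day 4 lay above day 1 without overlap in each strain, and at day 4 WT and set2Δ overlapped while all bre1Δ libraries were lower. The rise was 2.33 ± 0.09 in WT, 2.95 ± 0.09, adjusted p = 1.70e-16 in set2Δ and 2.38 ± 0.09 in bre1Δ, and the difference between the day effects of WT and bre1Δ was not called. SIM1, the remaining SUN gene of the list, fell in WT (-0.39 ± 0.08) and in set2Δ (-0.44 ± 0.08) and rose in bre1Δ (0.86 ± 0.08). SUN4, from the further cell wall genes outside the list, had a mean of 352 CPM at day 1 and 120 CPM at day 4 in WT. In set2Δ, SUN4 had 53.2 CPM and then 74.6 CPM, and in bre1Δ 261 CPM and then 2086 CPM.

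The PIR genes all rose by day 4 in both deletions, while in WT 1 of the 4 was called. The rise of HSP150 in set2Δ (0.30 ± 0.11, adjusted p = 0.0239) lost its call without replicate 2 or 3 of day 1 (adjusted p = 0.08 and 0.0883) or replicate 1 of day 4 (0.102), and with upper quartile scaling, library size only and both fits of log2 FPKM (0.111 to 0.218). PIR3 gave the largest change. In WT, PIR3 stood at 918, 849 and 1459 CPM at day 1 and 1335, 1284 and 1247 CPM at day 4. In set2Δ, PIR3 had 596, 525 and 540.5 CPM and later 3236, 3165 and 3009 CPM. In bre1Δ, PIR3 had 511, 532 and 532 CPM and later 1688, 1443 and 1718 CPM. Replicate 3 of WT at day 1 was high, so the WT days overlapped, whereas the set2Δ day 4 libraries were the highest of all 18 and the day 1 libraries of both deletions the lowest. PIR3 rose in set2Δ (2.5 ± 0.14, adjusted p = 1.13e-12) and in bre1Δ (1.62 ± 0.13), with 0.26 ± 0.13, adjusted p = 0.0716 in WT. The rise in set2Δ exceeded that in WT by 2.24 ± 0.18 and that in bre1Δ exceeded it by 1.36 ± 0.18.

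CIS3, the shortest of the 4 PIR genes, was lower in both deletions at both days. In WT, CIS3 stood at 235, 244 and 245 CPM at day 1 and 391, 379 and 369 CPM at day 4. In set2Δ, CIS3 had 80.0, 76.4 and 70.2 CPM and later 97.4, 88.9 and 82.4 CPM. In bre1Δ, CIS3 had 113, 128 and 107 CPM and later 214, 195 and 210.4 CPM. Every deletion library lay below every WT library of either day, and day 4 lay above day 1 in each strain. Against WT, CIS3 was lower in set2Δ at day 1 (-1.68 ± 0.07) and day 4 (-2.09 ± 0.07, adjusted p = 1.41e-16) and in bre1Δ (-1.06 ± 0.07 and -0.88 ± 0.06). HSP150, a secreted heat shock glycoprotein of the family, rose in bre1Δ (1.26 ± 0.11) and was above WT there at day 4 (1.43 ± 0.12), and replicate 2 was its lowest bre1Δ day 4 library, at 4236 CPM against 5353 and 5553. PIR1 rose in set2Δ (0.90 ± 0.09) and bre1Δ (0.71 ± 0.09) and was lower than WT at day 1 in both (-1.52 ± 0.09 and -0.95 ± 0.09). In this family PIR3, HSP150, PIR1 and CIS3 have 10.8%, 7.38%, 7.16% and 2.52% of their stretches of 50 bases repeated, within the same gene or elsewhere in the genome. Repeats within a gene were not told apart, so these shares do not show whether reads could have been split between genes.

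The TIR genes and DAN1 encode serine- and alanine-rich mannoproteins best known from cold and oxygen-limited growth, and they were the least abundant class, with at most 0.0216% of the counts of any library. TIR1 (YER011W, chromosome V, 175248 to 176012, + strand) was far below WT in both deletions at both days. In WT, TIR1 stood at 46.9, 68 and 47.8 CPM at day 1 and 172, 173 and 168 CPM at day 4. In set2Δ, TIR1 had 7.53, 6.68 and 7.88 CPM and later 6.26, 6.39 and 7.67 CPM. In bre1Δ, TIR1 had 8.89, 8.28 and 8.46 CPM and later 18.4, 18.7 and 21 CPM. All 12 deletion libraries lay below all 6 WT libraries, and the days overlapped in set2Δ but not in WT or bre1Δ. TIR1 was lower than WT in set2Δ at day 1 (-2.89 ± 0.12) and day 4 (-4.64 ± 0.13, adjusted p = 9.53e-18) and in bre1Δ at day 1 (-2.68 ± 0.12) and day 4 (-3.13 ± 0.11, adjusted p = 7.88e-17). It rose with age in WT (1.64 ± 0.10) and bre1Δ (1.20 ± 0.13), with -0.11 ± 0.17, adjusted p = 0.582 in set2Δ.

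TIR3 and TIR4 did not follow TIR1. In WT, TIR3 stood at 7.77, 11.8 and 12.3 CPM at day 1 and 10.5, 9.14 and 8.64 CPM at day 4. In set2Δ, TIR3 had 6.63, 8.01 and 6.61 CPM and later 4.58, 3.83 and 5.79 CPM. In bre1Δ, TIR3 had 10.7, 11.2 and 12.6 CPM and later 31.9, 29.7 and 32.4 CPM. The bre1Δ day 4 libraries were the highest of all 18 and the set2Δ day 4 libraries the lowest, and the WT days overlapped. TIR3 rose in bre1Δ (1.45 ± 0.13), reached 1.73 ± 0.14, adjusted p = 1.09e-10 against WT at day 4 and was lower than WT in set2Δ at that day (-1.0 ± 0.17). Its fall in set2Δ (-0.59 ± 0.18, adjusted p = 0.00648) rested on replicate 2 of day 4, without which the value was -0.42 with adjusted p = 0.0701.

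In WT, TIR4 stood at 20.4, 25.3 and 20.7 CPM at day 1 and 21, 20.9 and 19.3 CPM at day 4. In set2Δ, TIR4 had 48.2, 44.8 and 39.2 CPM and later 41.2, 41.6 and 38.6 CPM. In bre1Δ, TIR4 had 20.9, 20.2 and 19.1 CPM and later 29.6, 25.4 and 33.6 CPM. The set2Δ libraries of both days lay above all others, and the days overlapped in WT and in set2Δ. TIR4 was higher than WT in set2Δ at day 1 (0.98 ± 0.10, adjusted p = 1.54e-08), the largest positive difference there among the 44 genes, and at day 4 (0.99 ± 0.10). TIR4 has 20.2% and TIR1 13% of such stretches repeated, within the same gene or elsewhere, the largest shares among the 44 genes. DAN1 and TIR2 rose in WT (1.10 ± 0.21 and 1.08 ± 0.13), and DAN1 was above WT in bre1Δ at day 1 (1.17 ± 0.21).

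The other mannoproteins include the most abundant wall mRNAs. Per length, CWP2 had the highest level of the 44 genes in WT at day 1 (12004 ± 1061 FPKM, SD, n = 3), followed by TIP1 (8888 ± 1703 FPKM), SED1 (7896 ± 1171 FPKM) and CCW12 (7250.0 ± 1003 FPKM). TIP1, SED1 and CCW12 lay within the sum of their SDs of the next in that order, and CWP2 lay above TIP1 by more than that. The lowest level was that of DAN1 (2.57 ± 0.689 FPKM). By day 4 SED1 led in each strain, with 18351 ± 1208 FPKM in WT, 16679.5 ± 1409 in set2Δ and 14537 ± 759.9 in bre1Δ, where CCW12 (13788 ± 1237 FPKM) lay within the sum of their SDs. SED1, the main surface protein of stationary-phase cells, rose by 1.21 ± 0.11 in WT, 1.84 ± 0.11 in set2Δ and 1.66 ± 0.11 in bre1Δ, and was below WT in both deletions at both days (-1.05 to -0.39). In set2Δ at day 4 that call was lost with library size only and both fits of log2 FPKM (adjusted p = 0.215 to 0.253). SED1 has 4.75% of its stretches of 50 bases repeated, within the same gene or elsewhere.

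TIP1, a mannoprotein induced by cold and heat shock, gave the largest fall of the 44 genes in WT. In WT, TIP1 stood at 5403, 6151 and 7864 CPM at day 1 and 564, 529.7 and 504 CPM at day 4. In set2Δ, TIP1 had 826, 769.6 and 760.0 CPM and later 378, 327 and 322 CPM. In bre1Δ, TIP1 had 3626, 3632 and 3103 CPM and later 1396, 1633 and 1416 CPM. No 2 groups overlapped, WT at day 1 was the highest and set2Δ at day 4 the lowest. TIP1 fell in WT by 3.60 ± 0.12, adjusted p = 1.56e-16, in set2Δ by 1.20 ± 0.11 and in bre1Δ by 1.22 ± 0.11. Against WT it was lower in set2Δ at day 1 (-3.04 ± 0.11, adjusted p = 2.48e-15) and day 4 (-0.64 ± 0.11), and in bre1Δ lower at day 1 (-0.91 ± 0.11) and higher at day 4 (1.48 ± 0.11, adjusted p = 4.02e-11).

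SPI1, a mannoprotein linked to weak-acid resistance, fell in every strain, least in WT. In WT, SPI1 stood at 2104, 2221 and 2285 CPM at day 1 and 1886, 1815 and 1761 CPM at day 4. In set2Δ, SPI1 had 2517, 2337 and 2271 CPM and later 662, 566 and 542 CPM. In bre1Δ, SPI1 had 718, 728 and 603 CPM and later 191, 173 and 197 CPM. WT and set2Δ overlapped at day 1, and the bre1Δ day 4 libraries were the lowest of all 18. SPI1 fell by 0.28 ± 0.08 in WT, by 2.01 ± 0.08 in set2Δ and by 1.87 ± 0.08, adjusted p = 4.31e-14 in bre1Δ. In bre1Δ at day 4 it was the gene farthest below WT (-3.28 ± 0.09, adjusted p = 2.39e-18), and it was lower there at day 1 also (-1.69 ± 0.08).

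CWP1, a GPI mannoprotein, moved in opposite directions in the 2 deletions. In WT, CWP1 stood at 339, 284 and 275 CPM at day 1 and 149.8, 139 and 131 CPM at day 4. In set2Δ, CWP1 had 246, 299 and 238 CPM and later 43.8, 38.3 and 32.8 CPM. In bre1Δ, CWP1 had 48.9, 52.6 and 42.6 CPM and later 134, 141 and 141 CPM. WT and set2Δ overlapped at day 1 and WT and bre1Δ at day 4, and set2Δ at day 4 and bre1Δ at day 1 shared the low end. CWP1 fell in WT by 1.09 ± 0.09 and in set2Δ by 2.78 ± 0.11, adjusted p = 5.83e-15, and it rose in bre1Δ (1.53 ± 0.10, adjusted p = 1.85e-11). The day effects of the deletions differed by 4.31 ± 0.15, adjusted p = 1.73e-15, the widest such gap among the 44 genes. CCW12, one of the main proteins of the outer wall, had the next widest gap (2.97 ± 0.18): it fell in set2Δ by 1.13 ± 0.13 and rose in bre1Δ (1.84 ± 0.13), with -0.16 ± 0.13, adjusted p = 0.246 in WT. CCW14 rose in all 3 strains (1.54 ± 0.07, 2.09 ± 0.07 and 2.05 ± 0.07) and was above WT in bre1Δ at both days (0.39 ± 0.07 and 0.90 ± 0.07).

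Among the glucan-modifying enzymes, 9 of 10 were lower in set2Δ than in WT at day 4, UTR2 being the exception (0.09 ± 0.17, adjusted p = 0.641), while in bre1Δ 4 were higher and 5 lower. In bre1Δ the lower call of GAS1 was lost with library size only and both fits of log2 FPKM (adjusted p = 0.665 to 0.677). The call of EXG1 in set2Δ at day 4 (-0.26 ± 0.11, adjusted p = 0.0352) was lost without replicate 1 or 3 of set2Δ or replicate 1 or 2 of WT (adjusted p = 0.0562 to 0.106). It was also lost with median of ratios scaling (-0.24, adjusted p = 0.056), upper quartile scaling (-0.17, 0.172), library size only (-0.01, 0.952) and both fits of log2 FPKM (0.956). EXG1, the major exo-1,3-β-glucanase, rose more in bre1Δ than any other of the 44 genes. In WT, EXG1 stood at 162, 223 and 159 CPM at day 1 and 759.9, 713 and 703 CPM at day 4. In set2Δ, EXG1 had 118, 123 and 109 CPM and later 586, 625 and 601 CPM. In bre1Δ, EXG1 had 90.4, 133 and 112 CPM and later 1829.6, 1783 and 1859.5 CPM. Day 4 lay above day 1 without overlap in each strain, and at day 4 bre1Δ was highest, then WT, then set2Δ. EXG1 rose by 2.0 ± 0.12 in WT, 2.37 ± 0.12 in set2Δ and 4.02 ± 0.12, adjusted p = 2.38e-16 in bre1Δ, and the rise in bre1Δ exceeded that in WT by 2.03 ± 0.16. In bre1Δ at day 4 it was above WT (1.33 ± 0.11), in the group where the daughter-cell genes were at 36230 to 38756 CPM in sum.

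SCW4, a glucanase of the soluble wall fraction related to BGL2, went the other way in the deletions. In WT, SCW4 stood at 1119.8, 1085 and 1100.1 CPM at day 1 and 1681, 1595 and 1512 CPM at day 4. In set2Δ, SCW4 had 423, 389 and 397 CPM and later 197, 188 and 167 CPM. In bre1Δ, SCW4 had 577, 628 and 584 CPM and later 269, 237 and 269 CPM. No 2 groups overlapped, and WT was highest at both days. SCW4 rose in WT (0.53 ± 0.07) and fell in set2Δ by 1.13 ± 0.07 and in bre1Δ by 1.21 ± 0.07, so that at day 4 it was below WT in both (-3.12 ± 0.07, adjusted p = 9.42e-19 and -2.63 ± 0.07, adjusted p = 2.34e-18). Its paralog SCW10 rose in WT (1.09 ± 0.09) and bre1Δ (1.06 ± 0.09) and fell in set2Δ by 0.39 ± 0.10, to 33.5 to 37.7 CPM per library at day 4, against 229 to 255 in WT.

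BGL2, the main endo-1,3-β-glucanase of the wall, rose in all 3 strains (2.30 ± 0.07 in WT, 1.70 ± 0.07 in set2Δ and 1.84 ± 0.07 in bre1Δ) and was below WT in set2Δ at day 4 (-1.32 ± 0.07). The glucanosyltransferase gene GAS1 rose in WT (0.52 ± 0.06) and bre1Δ (1.17 ± 0.06) and fell in set2Δ by 0.59 ± 0.06, where it ended below WT (-2.07 ± 0.06). GAS3 and GAS5 of the same family were also below WT in set2Δ at day 4 (-1.62 ± 0.06 and -1.5 ± 0.06) and above it in bre1Δ (0.24 ± 0.06 and 0.36 ± 0.06). CRH1, which joins chitin to glucan, rose in bre1Δ (2.31 ± 0.06) and stood above WT there at day 4 (1.26 ± 0.06) and below WT in set2Δ (-1.49 ± 0.07). Its relative UTR2 fell in set2Δ by 0.77 ± 0.16 and rose in bre1Δ (0.52 ± 0.16). EXG2, an exoglucanase with a GPI anchor, fell in set2Δ by 1.23 ± 0.07 and was below WT in both deletions at day 4 (-0.98 ± 0.07 and -1.13 ± 0.07).

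**Figure D4:**
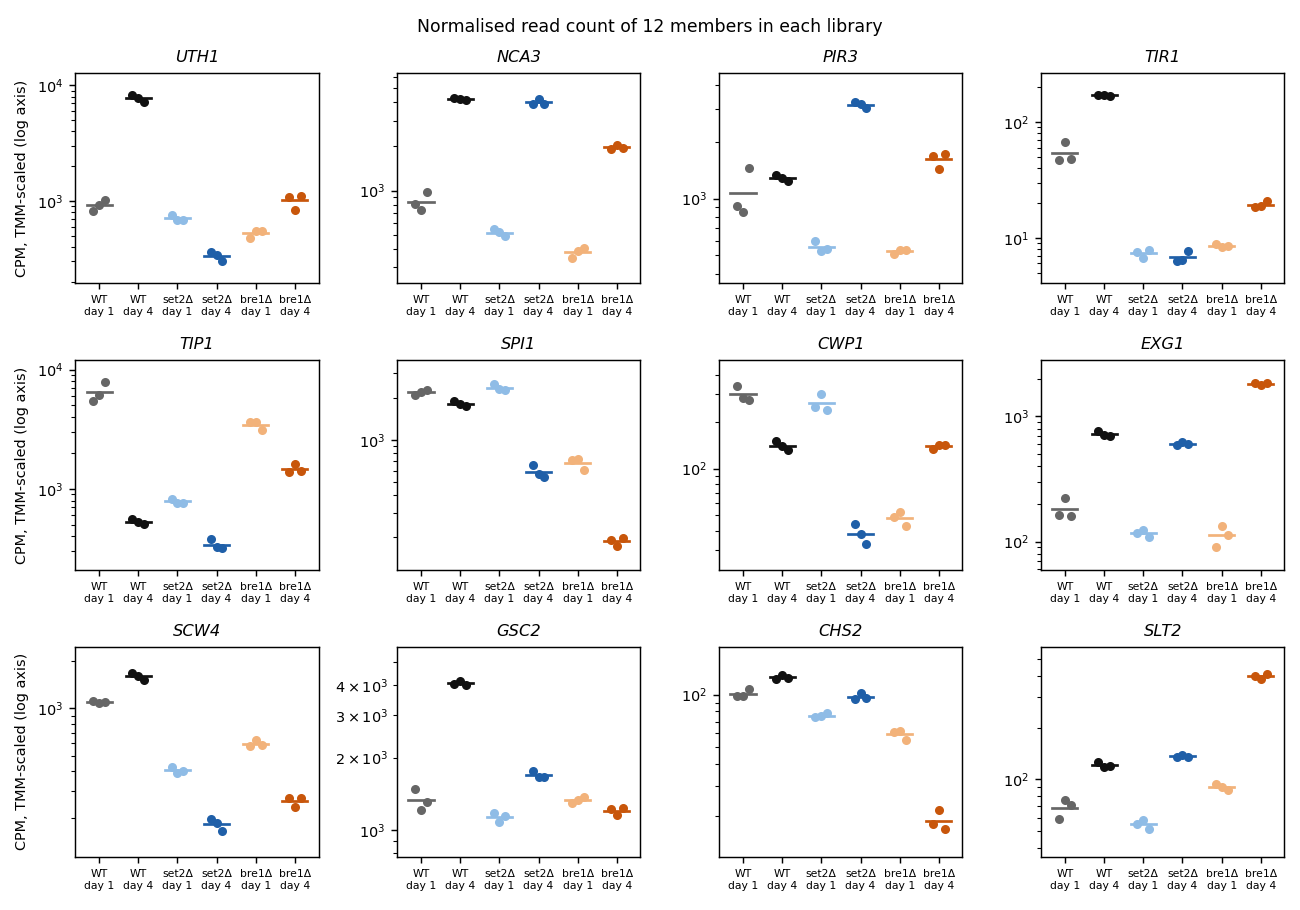
Normalised read count (CPM after TMM scaling, log axis) of 12 of the 44 genes in the 6 groups, with each library as a point and the group mean as a line. UTH1 is highest in WT at day 4 (7157 to 8300.4 CPM) and lowest in set2Δ at day 4 (301 to 365 CPM), and EXG1 and SLT2 are highest in bre1Δ at day 4.

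The 3 glucan synthase genes among the 44 rose in WT, and these 3 were lower in set2Δ than in WT at day 4. FKS3 and SKN1, from the further cell wall genes outside the 44, did not share this pattern in their group means. In WT, FKS3 had a mean of 33.7 CPM at day 1 and 29.9 CPM at day 4, against 52.7 CPM in set2Δ at day 4. SKN1 had 304 CPM and then 301 CPM in WT, against 364 CPM in set2Δ at day 4. FKS1 and GSC2 encode alternative catalytic subunits of 1,3-β-glucan synthase, GSC2 being the form known from stress and nutrient depletion. In WT, GSC2 stood at 1485, 1211 and 1309 CPM at day 1 and 4030.1, 4139 and 4013 CPM at day 4. In set2Δ, GSC2 had 1174, 1079 and 1145 CPM and later 1759, 1664 and 1658 CPM. In bre1Δ, GSC2 had 1289, 1330.4 and 1371 CPM and later 1223, 1159 and 1230.0 CPM. WT at day 4 stood far above all other groups, and in bre1Δ day 4 lay just below day 1. GSC2 rose in WT (1.61 ± 0.07, adjusted p = 9.71e-15) and less in set2Δ (0.58 ± 0.07), with -0.14 ± 0.07, adjusted p = 0.0551 in bre1Δ. The rise was smaller than in WT by 1.02 ± 0.09 in set2Δ and by 1.75 ± 0.09 in bre1Δ, and at day 4 bre1Δ was below WT (-1.75 ± 0.07).

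In WT, FKS1 stood at 262, 257 and 262 CPM at day 1 and 529, 519 and 516 CPM at day 4. In set2Δ, FKS1 had 285, 269 and 277 CPM and later 289, 276 and 277 CPM. In bre1Δ, FKS1 had 240.4, 244 and 246 CPM and later 456, 359.8 and 442 CPM. The days overlapped in set2Δ, and replicate 2 of bre1Δ at day 4 was lower than its 2 companions. FKS1 rose in WT (1.0 ± 0.06) and bre1Δ (0.78 ± 0.06) and was not called in set2Δ, which was below WT at day 4 (-0.89 ± 0.06). KRE6, needed for 1,6-β-glucan, rose in WT (0.75 ± 0.06) and was below WT in set2Δ at day 4 (-0.63 ± 0.06).

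Of the chitin synthase genes, CHS1 and CHS2 fell in bre1Δ by day 4 and rose in the other strains, while CHS3 did not follow them. CHS2, which makes the primary septum at division, gave the clearest case. In WT, CHS2 stood at 97.7, 98 and 107 CPM at day 1 and 123, 131 and 124 CPM at day 4. In set2Δ, CHS2 had 74, 74.9 and 78.5 CPM and later 93.8, 103 and 95.7 CPM. In bre1Δ, CHS2 had 61, 61.6 and 55.2 CPM and later 18, 21.6 and 16.9 CPM. The bre1Δ day 4 libraries were the lowest of all 18 by a wide margin. CHS2 fell in bre1Δ by 1.68 ± 0.08, adjusted p = 5.18e-14 and rose in WT (0.32 ± 0.06) and set2Δ (0.37 ± 0.07), and at day 4 bre1Δ was below WT (-2.76 ± 0.07, adjusted p = 2.62e-18).

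CHS1, a synthase that repairs the wall after separation, showed its highest level in bre1Δ at day 1. In WT, CHS1 stood at 271, 209 and 277 CPM at day 1 and 392, 400.0 and 405 CPM at day 4. In set2Δ, CHS1 had 108, 111 and 119 CPM and later 204, 227 and 224 CPM. In bre1Δ, CHS1 had 565, 535 and 692 CPM and later 336, 342 and 329.7 CPM. The bre1Δ day 1 libraries were the highest of all 18 and the set2Δ day 1 libraries the lowest. CHS1 fell in bre1Δ by 0.83 ± 0.09 and rose in WT (0.66 ± 0.09) and set2Δ (0.96 ± 0.09), and at day 1 bre1Δ was above WT (1.24 ± 0.09, adjusted p = 1.39e-10) and set2Δ below it (-1.16 ± 0.09). CHS3, the synthase of most wall chitin, rose in bre1Δ (0.92 ± 0.06) and was above WT there at both days (0.52 ± 0.06 and 1.40 ± 0.06). It was also above WT in set2Δ at both days (0.42 ± 0.06 and 0.46 ± 0.06).

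ECM33 and PST1 encode related GPI proteins of the cell surface and both rose in every strain. In WT, ECM33 stood at 581, 554 and 601 CPM at day 1 and 1160.5, 1178 and 1144 CPM at day 4. In set2Δ, ECM33 had 316, 301 and 315 CPM and later 1069, 1091 and 1047 CPM. In bre1Δ, ECM33 had 452, 433 and 401 CPM and later 550.2, 485 and 549.8 CPM. The bre1Δ day 4 libraries stayed below those of WT at day 1, whereas set2Δ at day 4 came near WT of that day. ECM33 rose by 1.0 ± 0.06 in WT, 1.78 ± 0.06, adjusted p = 7.00e-16 in set2Δ and 0.30 ± 0.06 in bre1Δ, and the rise in bre1Δ was smaller than in set2Δ by 1.48 ± 0.08.

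PST1, a gene known to rise when the wall is damaged, took the reverse order. In WT, PST1 stood at 296, 299 and 389 CPM at day 1 and 709, 697 and 694 CPM at day 4. In set2Δ, PST1 had 242, 259 and 245 CPM and later 383, 402 and 381 CPM. In bre1Δ, PST1 had 137, 136 and 148 CPM and later 761, 728 and 772 CPM. The bre1Δ libraries were the lowest of all at day 1 and the highest at day 4. PST1 rose by 1.09 ± 0.08 in WT, 0.64 ± 0.08 in set2Δ and 2.42 ± 0.08, adjusted p = 5.46e-16 in bre1Δ, and the rise in bre1Δ exceeded that in set2Δ by 1.78 ± 0.11. YPS1, an aspartic protease of the surface, fell in WT by 1.03 ± 0.09 and in bre1Δ by 0.87 ± 0.09 and rose in set2Δ (0.62 ± 0.09).

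In the integrity pathway the MAP kinase gene SLT2 (YHR030C, chromosome VIII, 168890 to 170344, - strand) rose in all 3 strains and most in bre1Δ. In WT, SLT2 stood at 58.6, 76.1 and 71.1 CPM at day 1 and 126, 118 and 119 CPM at day 4. In set2Δ, SLT2 had 55.2, 57.9 and 51.4 CPM and later 136, 139 and 134 CPM. In bre1Δ, SLT2 had 93.9, 90.9 and 87.1 CPM and later 400.3, 386 and 409 CPM. The bre1Δ day 4 libraries stood alone at the top, and day 4 lay above day 1 without overlap in each strain. SLT2 rose by 0.81 ± 0.07 in WT, 1.31 ± 0.07 in set2Δ and 2.14 ± 0.07, adjusted p = 2.81e-16 in bre1Δ, where the rise exceeded that in WT by 1.32 ± 0.09 and that in set2Δ by 0.82 ± 0.10. At day 4 bre1Δ was above WT (1.72 ± 0.07, adjusted p = 5.48e-16).

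PRM5, a membrane protein gene whose transcription is known to follow integrity signalling, also rose in every strain and most in bre1Δ. In WT, PRM5 stood at 43, 43.1 and 47.6 CPM at day 1 and 113, 107 and 102 CPM at day 4. In set2Δ, PRM5 had 34.7, 35.4 and 32.7 CPM and later 82.7, 79.9 and 78.8 CPM. In bre1Δ, PRM5 had 31.1, 33.4 and 29.1 CPM and later 172, 172 and 176 CPM. The bre1Δ libraries overlapped those of set2Δ at day 1 and were the highest of all at day 4. PRM5 rose by 1.27 ± 0.06 in WT, 1.23 ± 0.06 in set2Δ and 2.47 ± 0.06, adjusted p = 6.11e-18 in bre1Δ, and the day effects of WT and set2Δ were not called different (-0.04 ± 0.08, adjusted p = 0.651).

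The kinase genes above SLT2 were not called higher in bre1Δ by day 4, and 2 of the 3, BCK1 and PKC1, fell. BCK1 encodes the first kinase of the cascade below Pkc1. In WT, BCK1 stood at 87.9, 92.8 and 95.6 CPM at day 1 and 52.8, 56.2 and 50.1 CPM at day 4. In set2Δ, BCK1 had 138, 140.1 and 141 CPM and later 146, 153 and 151 CPM. In bre1Δ, BCK1 had 106, 108 and 109 CPM and later 77.2, 73.6 and 83.5 CPM. The set2Δ libraries of both days lay above all others, and the WT day 4 libraries were the lowest. BCK1 fell in WT by 0.80 ± 0.05 and in bre1Δ by 0.45 ± 0.05, and at day 4 it was the gene farthest above WT in set2Δ (1.5 ± 0.05, adjusted p = 4.99e-16). PKC1 rose in WT (0.91 ± 0.06) and set2Δ (0.56 ± 0.06) and fell in bre1Δ by 0.90 ± 0.06, so that bre1Δ was below WT at day 4 (-1.15 ± 0.06). MKK1 rose in WT (0.57 ± 0.04) and set2Δ (0.39 ± 0.04), with 0.07 ± 0.04, adjusted p = 0.165 in bre1Δ. RLM1 rose in all 3 strains (1.15 ± 0.07 in WT, 0.26 ± 0.07 in set2Δ and 0.67 ± 0.07 in bre1Δ) and was below WT in both deletions at day 4 (-0.69 ± 0.07 and -0.66 ± 0.07).

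The 11 genes with the motif printed above were set beside the other 33 as a description. In WT, 7 of the 11 rose by day 4 and 2 fell, with a median log2 fold change of 0.88, and 20 of the 33 rose and 6 fell, with a median of 0.64. In set2Δ, 9 of the 11 rose and 1, CWP1, fell (median 0.52), and 16 of the 33 rose and 13 fell (median 0.07). Under other scalings the set2Δ rises of HSP150 and RLM1 among the 9, and of CIS3, KRE6 and TIR2 among the 16, lost their calls. In bre1Δ, 9 of the 11 rose and 1, BCK1, fell (median 1.53), and 21 of the 33 rose and 7 fell (median 0.57). Of all genes tested, 37.2% rose and 40.5% fell in WT, 34.3% and 37.3% in set2Δ, and 37.9% and 38.4% in bre1Δ. SLT2 and PRM5, which rose in all 3 strains, have no match in their windows, which says only that these letters are not there.

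**Figure D5:**
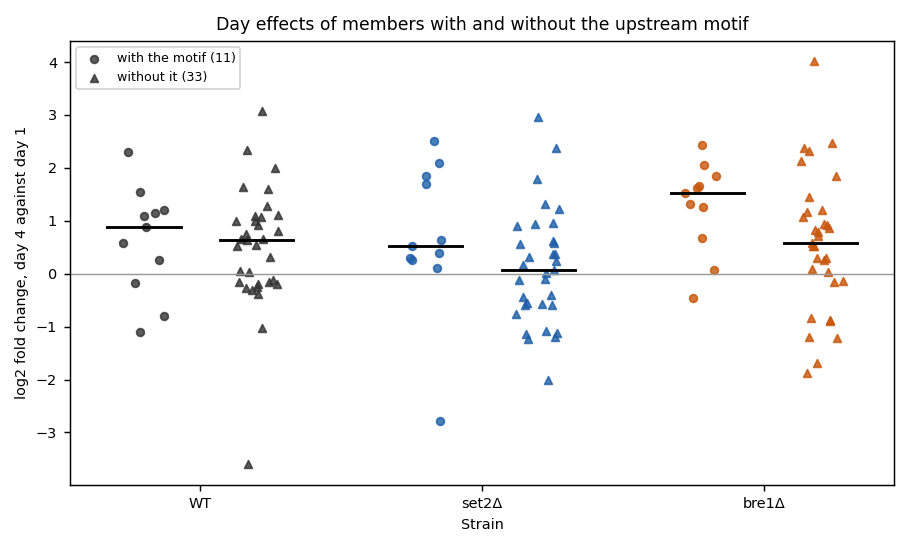
Log2 fold change from day 1 to day 4 in each strain for the 11 genes with the motif within 500 bases before their start codon (circles) and the other 33 (triangles), with horizontal jitter and the median as a line. The medians are 0.88 and 0.64 in WT, 0.52 and 0.07 in set2Δ, and 1.53 and 0.57 in bre1Δ, and the points of each pair of columns overlap.

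Of 21 further genes of the integrity pathway, all of them tested, 6 rose and 8 fell in WT by day 4 (median -0.07), 12 rose and 5 fell in set2Δ (0.20), and 14 rose and 3 fell in bre1Δ (0.37). Over all genes the shares that rose and fell were 37.2% and 40.5% in WT, 34.3% and 37.3% in set2Δ, and 37.9% and 38.4% in bre1Δ. The sensor gene MID2 (1.25 ± 0.05) and the GTPase gene RHO1 (0.99 ± 0.05) rose in WT, and the cell cycle transcription factor gene SWI4 fell (-1.11 ± 0.07). In set2Δ the sensor gene MTL1 (1.38 ± 0.08), the exchange factor gene ROM2 (0.67 ± 0.05) and RHO1 (0.64 ± 0.05) rose. In bre1Δ the exchange factor gene ROM1 fell by 1.56 ± 0.06, and SAC7, for a GTPase activator (1.47 ± 0.06), and KDX1, for a pseudokinase (1.27 ± 0.06), rose. Against WT at day 1, 5 were higher and 14 lower in set2Δ (37.9% and 39.5% of all genes), and 4 higher and 12 lower in bre1Δ (35.8% and 35.8%). The sensor gene WSC1 was lower in both (-0.98 ± 0.06 and -1.03 ± 0.06). At day 4, 8 were higher and 9 lower in set2Δ (34.7% and 44% of all genes), MID2 among the latter (-1.02 ± 0.05). In bre1Δ 11 were higher and 9 lower (44.8% and 41.6%), with LRG1, for a GTPase activator of Rho1, among the former (1.63 ± 0.08).

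Of 23 further cell wall genes, all of them tested, 10 rose and 8 fell in WT by day 4 (median -0.06), 14 rose and 7 fell in set2Δ (0.42), and 15 rose and 3 fell in bre1Δ (0.72). DAN3 of this list lay between 0 and 2.62 CPM in the libraries, so any call of it carries a large counting error. The glucan assembly genes KRE1 (1.69 ± 0.10) and KRE9 (1.20 ± 0.06) rose in WT, and KNH1, a relative of KRE9, rose in set2Δ (1.25 ± 0.08) and in bre1Δ (2.68 ± 0.09). GFA1, the first enzyme on the way to chitin, rose in bre1Δ (1.14 ± 0.05) and was below WT in set2Δ at both days (-0.80 ± 0.05 and -1.12 ± 0.05). Against WT at day 1, 5 were higher and 15 lower in set2Δ, and 6 higher and 11 lower in bre1Δ. At day 4, 6 were higher and 15 lower in set2Δ, and 12 higher and 7 lower in bre1Δ, where KRE1 was below WT (-2.42 ± 0.10) and CHS6, for a chitin synthase transport factor, above it (1.22 ± 0.05). The shares of all genes given for the integrity genes hold for these comparisons too. SCW11 stands in this list and in the daughter-cell list.

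Across the 44 genes the highest of the 6 group means stood in WT at day 4 for 16 genes and in bre1Δ at day 4 for 14, and the lowest in set2Δ at day 1 for 14, in bre1Δ at day 1 for 12 and in set2Δ at day 4 for 11.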

How the data were processed

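Gene expression was measured by RNA-seq in 18 libraries, 3 in each of 6 groups. Reads were handled with FastQC 0.11.8, cutadapt 2.6, STAR 2.7.0b, HTSeq 2.0.2, R 4.2.0 and DESeq2 1.36.0 on sacCer3, per the submitters' processing notes; the strand setting and annotation are not given in the sources used here. The deposited tables hold raw read counts per gene and FPKM by the authors. The gene lengths that the deposited FPKM values imply lay within 0.07% of the R64 spans of all 44 genes, and none of the 44 overlaps another annotated gene.

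Counts were tested with edgeR 4.0.16 (filterByExpr on the 6 groups, TMM scaling, 1 mean per group over all 18 libraries, quasi-likelihood F tests, two-sided). Each of the 10 comparisons had its p values adjusted (Benjamini-Hochberg) over 6320 genes. The biological coefficient of variation was 6.22%. FPKM served to compare levels between genes and, with pseudocounts of 1 and 0.1, in limma 3.58.1 alternatives. DESeq2 1.42.0, other scalings, no filter, fits of the compared libraries only, a replicate block and leaving out each library were further alternatives. The labels do not say that replicate numbers pair libraries. Deviations of same-numbered libraries from their group means correlated above 0.1 in all 3 pairs only between WT and bre1Δ at day 1 (0.129, 0.137 and 0.129), so a block was also fitted there. The analysis was tested on simulated data in which a small part of the genes changed, in both directions and in 1 group. Such data cannot decide between the scalings, because most genes were called in the real comparisons.

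Values in every library are given for the 2 genes of each class with the widest range of group means and for the largest rise and fall in each pairwise comparison. From other lists at most 3 genes per comparison with the smallest p are named. PIR5, SUN4, FKS3 and SKN1 were added to these after the results were seen, with group means only. The 44 members and all lists were chosen with earlier results of these data known.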

Additional observations from a re-analysis of the deposited data

Results flagged for a closer look

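Genes whose day effect was called in opposite directions in 2 strains, with the difference itself called by edgeR, are listed here as differences of log2 fold changes. For set2Δ minus WT the differences were -4.15 for UTH1, -1.67 for SCW4, -1.48 for SCW10, -1.11 for GAS1 and 1.64 for YPS1. For bre1Δ minus WT they were 2.62 for CWP1, 1.25 for SIM1, 0.73 for GAS3, -1.49 for CHS1, -1.74 for SCW4, -1.81 for PKC1 and -2.00 for CHS2. For bre1Δ minus set2Δ they were 4.31 for CWP1, 2.97 for CCW12, 2.04 for TIR3, 2.03 for UTH1, 1.76 for GAS1, 1.46 for SCW10, 1.3 for SIM1, 1.29 for UTR2 and 1.09 for GAS3, and -1.46 for PKC1, -1.49 for YPS1, -1.79 for CHS1 and -2.04 for CHS2. The TIR3 entry includes a fall in set2Δ that lost its call without replicate 2 of day 4 (adjusted p = 0.0701).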

How the results depend on the processing

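Upper quartile scaling called 13 of the 44 genes lower by day 4 in WT, against 8 with TMM. Scaling by library size only and limma on log2(FPKM + 1) and log2(FPKM + 0.1) each called 13 higher in set2Δ at day 1, against 8. The other counts stayed within 1.5 times under every alternative run. With library size only, the genes called higher in bre1Δ against WT reached that limit, at 15 against 10 at day 1 and 24 against 16 at day 4. At day 4 the genes called lower were 17 there against 21 with TMM, so the larger side changed. Leaving out 1 library gave these ranges of genes called higher and lower: WT with age 27 to 28 and 8 to 11; set2Δ with age 22 to 25 and 13 to 14; bre1Δ with age 30 and 8 to 9; set2Δ against WT 7 to 8 and 31 to 32 at day 1 and 6 to 7 and 30 to 32 at day 4; bre1Δ against WT 10 and 26 to 28 at day 1 and 15 to 17 and 21 at day 4. For the differences of day effects they were 11 to 13 and 22 to 23 (set2Δ to WT), 22 to 25 and 15 to 17 (bre1Δ to WT), and 24 to 25 and 10 to 12 (bre1Δ to set2Δ). Of 423 single values, 19 alternatives reversed a sign, 161 lost a call and 13 gained one. Under library size only, log2(FPKM + 1) and log2(FPKM + 0.1) alike, the reversed values were 0.13 for RLM1 in bre1Δ at day 1, 0.0204, 0.0205 and 0.0206 for CHS1 and 0.14 for MKK1 in bre1Δ at day 4, and 0.13 for GSC2, 0.14 for PKC1 and 0.0353, 0.0486 and 0.0499 for SLT2 in set2Δ at day 1. MKK1 in bre1Δ at day 4 also reversed with upper quartile scaling (0.00652). The cause was not tested beyond the shift of all genes that these scalings make. Of 45 pairs of same-numbered libraries, 6 had a correlation over 0.1 (range -0.164 to 0.274), 3 of them those of WT and bre1Δ at day 1. With a replicate block in the fit of these 6 libraries alone, added after seeing the data, bre1Δ against WT at day 1 kept 10 higher and 28 lower genes, TIR2 included. With the replicate block over all 18 libraries, counts in the order above were 28 and 8, 25 and 14, 30 and 9, 8 and 32, 7 and 32, 10 and 27, 16 and 21, 13 and 23, 23 and 16, and 24 and 11, and TIR2 in bre1Δ at day 1 lost its call (adjusted p = 0.0543).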
